A study of Mus musculus with 167 samples.

Results

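The miR-29 family comprises mature microRNAs (miRNAs) cut from 4 hairpins, and its rows were taken by name from the count tables of all 5 tissues of the study. The members were mmu-miR-29a-3p, mmu-miR-29b-3p, mmu-miR-29c-3p, mmu-miR-29a-5p and mmu-miR-29c-5p, which are 5 of the 1915 mature miRNAs in each table. The tables also held 2 further arms of the family, mmu-miR-29b-1-5p and mmu-miR-29b-2-5p, which never exceeded 7 counts in a library and are given as values only. Small RNA libraries had been made from lung, heart, brain, white blood cells (WBC) and red blood cells (RBC) of 35 mice, 167 libraries in all. C3H mice (C3Hf/Sed/Kam per the study's methods, all female) were sampled in month 4 and C57 mice (C57Bl/6, both sexes) in month 6, after whole thorax lung irradiation (WTLI) or after a sham procedure. WTLI is a single X-ray exposure of the chest under anaesthesia with the rest of the body behind lead, so lung and heart lay in the field and brain did not. C3H mice are a model of radiation pneumonitis and C57 mice of radiation fibrosis, and the irradiated animals were those alive at the endpoint. Lung, heart, brain and RBC each had 7 irradiated and 8 sham C3H mice and 5 irradiated and 15 sham C57 mice. WBC had 6 irradiated and 5 sham C3H mice and 5 irradiated and 11 sham C57 mice. Strain and month were fully confounded and cannot be told apart. Of the 5 irradiated C57 mice 1 was female (replicate 5), whereas 7 of the 15 sham C57 mice were female. Each sample title also held an A or a B (called the letter below), and no source used here says what it stands for.

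miR-29 is widely described as an anti-fibrotic family: its mature 3p arms pair with messenger RNAs of collagens, elastin and fibrillin and lower their output, and loss of miR-29 accompanies fibrosis in many organs. A miRNA finds its targets mainly through its seed, the bases near its 5′ end. Each hairpin yields a 5p arm and a 3p arm, of which the 3p arm of miR-29 is the guide that loads into the silencing complex, while the 5p arm is mostly degraded as the passenger strand. miR-29 is abundant in adult lung, heart and brain, in fibroblasts, endothelium and neurons among other cells.

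The 5 mature sequences are shown because the members differ by so few bases. They are from RefSeq (GRCm38.p6), written 5′ to 3′, with the seed (bases 2 to 8) in capitals:
mmu-miR-29a-3p: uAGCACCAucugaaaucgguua
mmu-miR-29b-3p: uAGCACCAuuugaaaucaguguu
mmu-miR-29c-3p: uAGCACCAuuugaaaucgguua
mmu-miR-29a-5p: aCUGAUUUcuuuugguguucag
mmu-miR-29c-5p: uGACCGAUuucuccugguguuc

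The 3p arms had 1 seed in common, AGCACCA, and they were the only 3 of the 1679 mature mouse miRNAs with a RefSeq sequence here that carried it. Among the same sequences each 5p arm had a seed of its own. Counting from 1 at the 5′ end, miR-29a-3p and miR-29c-3p differed by the single substitution C10U. miR-29a-3p and miR-29b-3p differed by 4 substitutions over 22 positions (C10U, G18A, U21G, A22U), and miR-29b-3p is 1 base longer at 23. The rule for reads that matched more than 1 miRNA is not given in the sources used here, so the split of reads between miR-29a-3p and miR-29c-3p rests on base 10 and is uncertain where that base is misread.

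The genes lie in 2 clusters of the mm10 build (GRCm38). Mir29a (chr6:31062660-31062747, minus strand) and Mir29b-1 (chr6:31063023-31063093, minus strand) are separated by 275 bases on chromosome 6. Mir29b-2 (chr1:195037040-195037120, plus strand) and Mir29c (chr1:195037547-195037634, plus strand) are separated by 426 bases on chromosome 1. In the GENCODE annotation both hairpins of chromosome 1 lay within an exon of the noncoding transcript A330023F24Rik and, antisense, within an exon of Cd46. Mir29b-1 shared its outermost bases with an exon of the lincRNA Gm27019 on the same strand, and Mir29a overlapped no other gene. miR-29b-3p is made from both clusters with an identical sequence, so its counts cannot be assigned to either locus. The hairpins of miR-29a and miR-29c are shown with the 5p arm (first) and the 3p arm (second) in capitals, since both of their arms were members:
Mir29a: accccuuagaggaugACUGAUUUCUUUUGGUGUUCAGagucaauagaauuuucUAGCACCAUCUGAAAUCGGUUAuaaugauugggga
Mir29c: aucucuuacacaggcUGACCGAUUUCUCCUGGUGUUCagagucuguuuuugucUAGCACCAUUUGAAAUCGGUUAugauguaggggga

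The complement of the shared seed, TGGTGCT on the transcript strand, was searched in the longest annotated 3′ UTR of each gene, and 2740 of 21004 genes (13.05%) held it. Of 9 genes picked as textbook miR-29 targets (Col1a1, Col1a2, Col3a1, Col5a1, Eln, Fbn1, Dnmt3a, Dnmt3b and Mcl1), 8 held at least 1 match. Col1a2 held none in this window. The matches numbered 5 in Dnmt3a, 4 in Col5a1, 3 in Eln, 2 in Fbn1 and 1 in each of the others. Among UTRs of similar length the share with a match was 13.04% for Col1a1, 9.66% for Col3a1 and 11.96% for Eln. It was higher for the genes with long UTRs, at 46.2% for Dnmt3a, 23.5% for Col5a1 and 22.0% for Mcl1, and 12.3% for Dnmt3b and 9.93% for Fbn1. A match is a run of letters and not a measured site, and no messenger RNA was measured here. Windows around 1 match of each of these matrix genes are shown in transcript orientation, with the match in capitals, to show what the seed pairs with. Col1a1 and Col3a1 encode fibrillar collagens and Eln encodes elastin. The windows are chr11:94952524-94952552 (plus strand), chr1:45348968-45348996 (plus strand) and chr5:134703729-134703757 (minus strand):
Col1a1: tgggaaggaatttcTGGTGCTatagaagc
Col3a1: tcaaaatgtctcaaTGGTGCTataataaa
Eln: gacctcatcaacgtTGGTGCTactgcttg

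Library totals ran from 1794995 to 7865102 counts. Levels below are RPM, the count of a miRNA per 1000000 miRNA counts of its library, and all intervals of single counts cover counting error only. The members are 22 or 23 bases long, so levels were compared between them with no length term, and the efficiency of ligating each sequence was not measured. The tissue labels held for lung, heart and brain: miR-208a-3p, from a cardiac myosin gene, was higher in all 35 heart libraries than in any other library, epithelial miR-200c-3p was so in 34 of 35 from lung, and neuronal miR-124-3p in all 35 from brain. Markers did not separate the blood fractions. The summed leukocyte markers were 10623 to 33448 RPM in WBC and 8203 to 45244 RPM in RBC, and the summed erythrocyte markers 17913 to 106907 RPM in WBC and 28566 to 106323 RPM in RBC. In heart, C3H irradiated replicate 3 stood apart with 50690 RPM of cardiac markers. In bulk tissue, fewer cells of a type and less RNA per cell cannot be told apart.

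In sham mice miR-29 was a major family of the solid tissues and a minor one of blood cells. Brain had the most: mmu-miR-29a-3p averaged 24996 RPM there, mmu-miR-29b-3p 14009 RPM and mmu-miR-29c-3p 13811 RPM, and the 3p arms together were 5.28% of all miRNA reads. In lung the means were 18202 ± 5782 RPM (SD, n = 23) for miR-29a-3p, 6235 ± 1505 RPM for miR-29b-3p and 7042 ± 2791 RPM for miR-29c-3p, which ranked 12, 24 and 20 among all miRNAs, and the family made up 3.15% of reads. Heart lay close to lung, at 11981 RPM of miR-29a-3p, 8504 RPM of miR-29b-3p and 8560 RPM of miR-29c-3p, or 2.90% of reads. WBC had 0.178% ± 0.084 (SD, n = 5) of reads in the family in C3H and 0.941% ± 0.417 (n = 11) in C57, and RBC 0.093% ± 0.024 (n = 8) and 0.114% ± 0.052 (n = 15). In RBC miR-29a-3p averaged 428 RPM, miR-29b-3p 575 RPM and miR-29c-3p 64.7 RPM. The 5p arms were far lower: in lung miR-29a-5p averaged 17.7 RPM and miR-29c-5p 7.29 RPM, and in RBC 1.98 and 0.438 RPM.

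**Figure D1:**
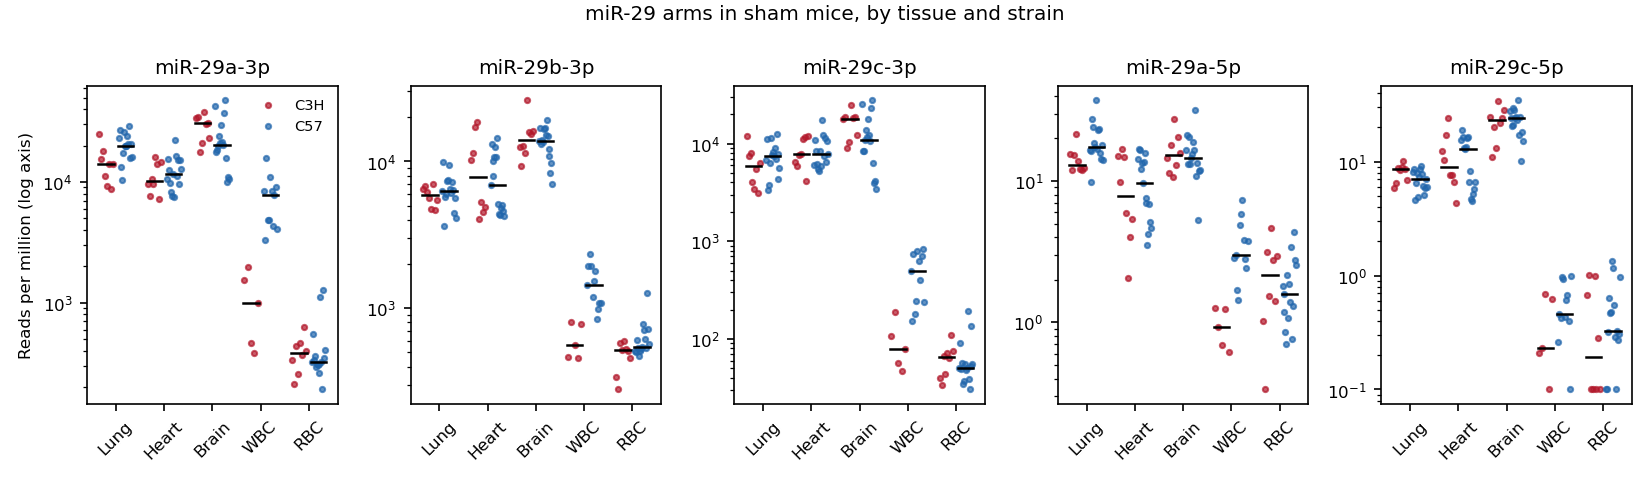
RPM (log axis) of the 5 miR-29 arms in each sham library of the 5 tissues, with C3H in red and C57 in blue, and a bar at the median of each group. Libraries with no count are drawn at the bottom of the axis. All 3 abundant arms were high in lung, heart and brain and low in WBC and RBC, and in WBC every C57 library lay above every C3H library for miR-29a-3p and miR-29b-3p, with overlap for miR-29c-3p.

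The tissues were compared in 1 limma fit of all sham libraries scaled by library size, with Benjamini-Hochberg adjustment over 524 miRNAs. Over the 10 pairs of tissues and 5 members, 45 of 50 tests passed an adjusted p of 0.05. All 5 members were lower in heart than in brain (88.4% of all miRNAs tested differed in that pair). The 3p arms and miR-29a-5p were higher in solid tissue than in blood cells for every pair: lung against WBC (88.7%), lung against RBC (85.7%), heart against WBC (89.9%), heart against RBC (88.5%), brain against WBC (90.3%) and brain against RBC (93.5%). miR-29c-5p had 0 to 5 counts in each WBC and RBC library and was in this fit through the solid tissues where it is high, so its 6 calls against blood cells were fixed by the filter. The largest step was mmu-miR-29c-3p between brain and RBC, 7.75 ± 0.24 (SE) on the log2 scale, against 5.98 for mmu-miR-29a-3p and 4.69 for mmu-miR-29b-3p. Between lung and brain 4 members were lower in lung (87.2%), and miR-29a-5p differed by 0.09 (adjusted p = 0.671). Between lung and heart 3 members passed (67%): miR-29a-3p was higher in lung by 0.54 (adjusted p = 0.00223), miR-29a-5p was higher by 0.97, and miR-29b-3p was lower by 0.35 (log2 difference -0.35, adjusted p = 0.0312). Between WBC and RBC the 3p arms were higher in WBC (41.2%), and miR-29a-5p differed by 0.01 with no call. miR-29c-5p had too few counts in both for its value to be read.

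These differences are shares of the reads, and the order among the solid tissues moved with the scaling. With library size alone the median difference of all miRNAs was -1.95 between heart and brain and -1.16 between lung and brain, and with TMM factors, which centre the bulk of miRNAs, -0.80 and -0.42. Under TMM all 5 members turned from lower to higher values in heart than in brain, and 2 of them passed, mmu-miR-29b-3p at 0.32 (adjusted p = 0.0139) and mmu-miR-29c-3p at 0.49 (adjusted p = 0.0178), and mmu-miR-29a-3p was at 0.21 for lung against brain (adjusted p = 0.229). The excess of the members in solid tissue over blood cells had the same direction under both scalings. With quantile normalisation, which gives every tissue 1 distribution, mmu-miR-29a-5p turned lower in brain than in WBC (-1.07) and RBC (-1.93) and in heart than in RBC (-0.12).

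The make-up of the family is given as shares of the summed 3p reads, as a description. In sham lung miR-29a-3p was 54.0% ± 1.74 (SD, n = 8) of the summed 3p reads in C3H and 59.5% ± 3.93 (n = 15) in C57. In sham heart it was 39.0% ± 9.37 in C3H and 42.5% ± 7.73 in C57, while miR-29b-3p was 32.4% ± 15.9 (12.9 to 51.7%) and 28.2% ± 13.2 (11.4 to 52.1%), and miR-29c-3p 28.6% ± 7.20 and 29.3% ± 5.86. The wide range of miR-29b-3p in heart goes with the 2 levels of its hearts described further on. miR-29c-3p made up 21.4 to 29.3% of the family in the sham groups of the 3 solid tissues but 5.14 to 6.64% in blood cells. In WBC the C57 mice had 77.3% miR-29a-3p and 17.5% miR-29b-3p, against 55.8% and 39.0% in C3H mice, whereas in RBC miR-29b-3p was the largest part in both strains (51.9% in C3H and 57.6% in C57).

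**Figure D2:**
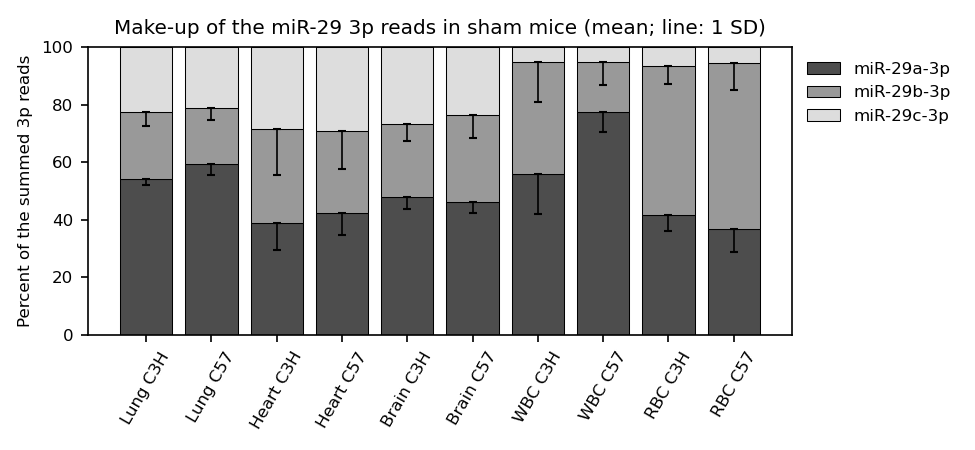
Mean share of each 3p arm in the summed miR-29 3p reads (percent) of sham mice by tissue and strain, with a line of 1 SD below the top of the lower 2 segments. miR-29a-3p was the largest part in every group except RBC, and miR-29c-3p was a small part in blood cells.

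The question in irradiated lung was whether this anti-fibrotic family is lower months after WTLI, in the strain prone to pneumonitis and in the strain prone to fibrosis. In C3H lung 2 of the 5 members were lower and none higher. mmu-miR-29b-3p was 4665, 5943 and 7039 RPM (lowest, median and highest) in the 8 sham lungs and 2934, 3927 and 5982 RPM in the 7 irradiated lungs. The groups overlapped, with 4 irradiated lungs below every sham lung and 6 of 7 below the sham median. On quantile-normalised log2 RPM its difference was -0.57 ± 0.16 (SE; 95% interval -0.90 to -0.25; limma, adjusted p = 0.00544). mmu-miR-29a-5p, the passenger strand of Mir29a, was 11.9, 13.05 and 21.4 RPM in sham lungs and 6.24, 8.63 and 14.8 RPM in irradiated lungs. Of the 7 irradiated lungs, 5 lay below every sham lung. Its difference was -1.02 ± 0.22 (95% interval -1.47 to -0.56; adjusted p = 0.000564), and it rested on 17 to 74 counts per library.

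Both calls have to be read against a lung in which much moved: 117 of the 350 miRNAs tested in C3H lung were called (33.4%), 60 of them lower (17.1%), and the median difference of all 350 was -0.08. The members' median was -0.28, with all 5 below 0. Neither call passed once the fold minimum the study used was added. Both calls held when each library was left out in turn, with miR-29b-3p between -0.64 and -0.50. The letters did not give the same size: in letter A alone (3 irradiated, 4 sham) mmu-miR-29b-3p differed by -0.90 (adjusted p = 0.00874) and in letter B alone (4 and 4) by -0.32 (adjusted p = 0.303). mmu-miR-29a-5p was lower in both, by -1.20 and -0.87 (adjusted p = 0.0279 and 0.0405). With library size as the only scaling, where the median of all miRNAs was 0.27, miR-29a-5p was at -0.53 (adjusted p = 0.0506).

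The other members did not pass in C3H lung. mmu-miR-29a-3p, the most abundant, was 8681, 14018 and 24773 RPM in sham and 8520, 12189 and 20565 RPM in irradiated lungs, and its groups overlapped almost fully (log2 difference -0.02, 95% interval -0.41 to 0.37, adjusted p = 0.944). This value depended on the scaling: it was -0.49 with TMM (adjusted p = 0.0574) and -0.51 with edgeR's quasi-likelihood test, which called it (adjusted p = 0.0469). mmu-miR-29c-3p was 3151, 5923 and 11951 RPM in sham and 3300, 3805 and 10398 RPM in irradiated lungs (-0.28, 95% interval -0.85 to 0.29, adjusted p = 0.474). Of the irradiated lungs, 6 of 7 lay below the sham median, and replicate 7 was far above the rest. Without that library the value was -0.53 (adjusted p = 0.130), and without sham replicate 1 it was -0.14. mmu-miR-29c-5p was 5.80, 8.52 and 10.1 RPM in sham and 5.18, 10.2 and 15.9 RPM in irradiated lungs (-0.16, adjusted p = 0.544). This direction was not stable: the value was 0.28 with library size alone, 0.041 with edgeR and 0.056 with DESeq2, and the mean RPM was higher after WTLI. The arm was spread more widely after WTLI, with 4 irradiated lungs above and 2 below every sham lung.

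**Figure D3:**
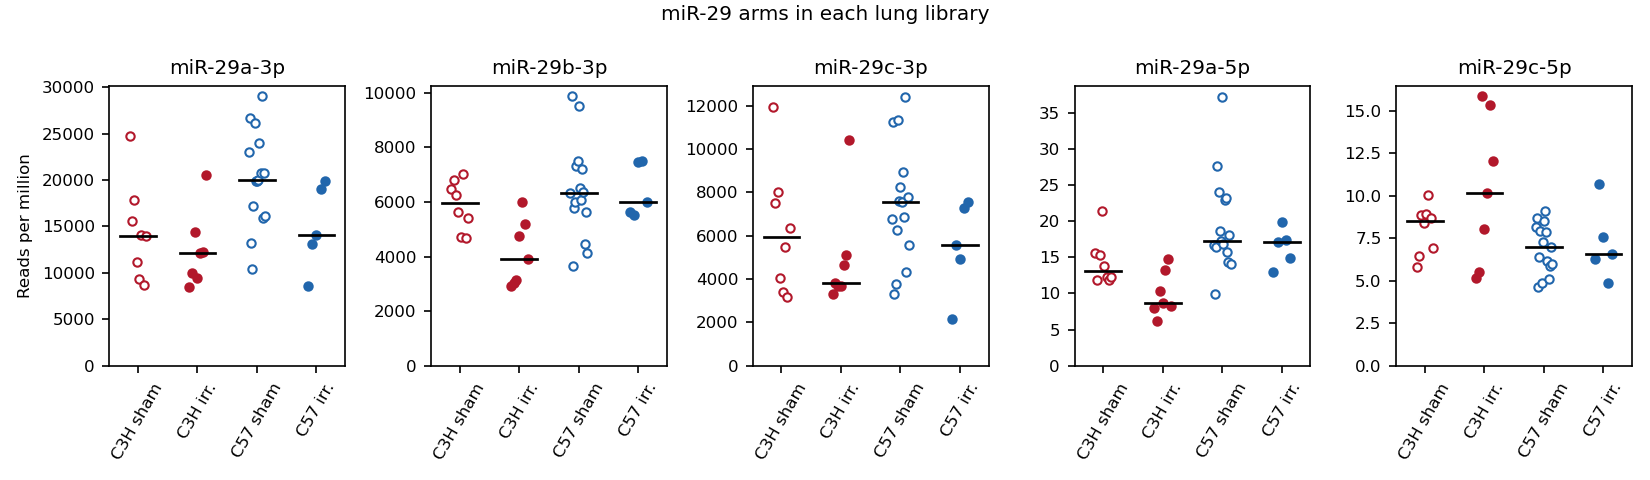
RPM of each miR-29 arm in every lung library by strain and treatment (open circles sham, filled circles irradiated, bar at the median). In C3H mice 4 of 7 irradiated lungs lay below every sham lung for miR-29b-3p and 5 of 7 for miR-29a-5p, and in C57 mice the irradiated and sham lungs overlapped for every arm.

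In C57 lung none of the 5 members passed in limma (58 of 350 miRNAs called, 16.6%), and 2 members were under 0.05 before adjustment. The number of miRNAs called rested in part on single libraries: it was 37 without irradiated replicate 5 and 86 without sham replicate 4, and 27 when the strain was fitted alone, 7 in letter A alone and 4 in males alone. In none of these was a member called. The endothelial markers of 1 sham lung, at 212137 RPM, lay far below the group's median of 385622 RPM. mmu-miR-29a-3p was 8639, 13066, 14077, 19088 and 19927 RPM in the 5 irradiated lungs and 10368, 20030 and 29109 RPM in the 15 sham lungs. All 5 irradiated values lay below the sham median, and 1 lay below every sham lung. Its difference was -0.20 ± 0.19 (adjusted p = 0.467), and edgeR made no call (-0.55, adjusted p = 0.0535). TMM with limma (-0.58, adjusted p = 0.0334) and DESeq2 (-0.55, adjusted p = 0.0402) called it. mmu-miR-29c-3p was 2138, 4942, 5578, 7253 and 7532 RPM against 3326, 7542 and 12391 RPM in sham, also with all 5 below the sham median (-0.57 ± 0.28, unadjusted p = 0.0498, adjusted p = 0.149 in limma). With 1 library left out it ran from -0.76 (without irradiated replicate 5) to -0.32 (without irradiated replicate 1), and mmu-miR-29a-3p from -0.25 to -0.11 (also without irradiated replicate 1). mmu-miR-29a-5p was 13.04, 14.8, 17.1, 17.5 and 19.9 RPM against 9.92, 17.3 and 37.2 RPM (-0.43, adjusted p = 0.144).

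mmu-miR-29b-3p, which was lower in C3H lung, was 5532, 5646, 5984, 7466 and 7494 RPM in irradiated C57 lungs, within the sham range of 3648 to 9898 RPM. Its difference there was 0.09 (95% interval -0.23 to 0.41, adjusted p = 0.723 in limma), and -0.091 with TMM. The difference between the strains was itself tested as the interaction of strain and irradiation. It was 0.67 ± 0.22 for mmu-miR-29b-3p (unadjusted p = 0.0052, adjusted p = 0.283 in limma), and 0 of 5 members passed in lung, where 1 of 350 miRNAs did (0.286%). At 0.59 (95% interval -0.03 to 1.21) the interaction of mmu-miR-29a-5p did not pass either. edgeR and DESeq2 also called 0 members for this difference.

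Other miRNAs that the fibrosis literature ties to the same processes moved in both directions in lung. Of a list of 22 (chosen with earlier results of these data known), 21 were tested. In C3H lung 4 were higher and 7 lower, and in C57 lung 2 were higher and 3 lower, against 33.4% and 16.6% of all miRNAs called. The list's median was -0.23 in C3H lung and 0.003 in C57 lung. miR-21a-3p and miR-34a-5p were higher in both strains. miR-21, which promotes fibroblast survival and signalling by transforming growth factor beta, differed by 1.47 ± 0.36 in C3H and 1.41 ± 0.34 in C57 for its 3p arm, and its 5p arm (1.501) and miR-199a-3p (0.61) were higher in C3H. miR-34a-5p, a target of p53, differed by 1.57 ± 0.16 in C3H and 1.17 ± 0.15 in C57. The miR-30 members miR-30a-5p (-0.77 and -0.66) and miR-30c-5p (-1.13 and -0.68) and miR-326-3p (-0.43 and -0.47) were lower in C3H and C57. The remaining called members, miR-101a-3p (-1.01), miR-133a-3p (-0.87), miR-26a-5p (-0.76) and epithelial miR-200b-3p (-0.55), were lower in C3H.

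Markers of cell types in the same C3H lungs moved beside the miR-29 calls. All 4 cardiac muscle markers were lower after WTLI, with summed levels of 4759 to 7515 RPM in sham and 2569 to 5226 RPM in irradiated lungs. The 2 endothelial markers summed to 380361 to 444378 RPM in sham and 297017 to 390147 RPM in irradiated lungs, and 1 of them, miR-126a-5p, was called lower (-0.73). Of 5 epithelial markers 1 was lower, of 5 mesenchymal markers 1 was higher, and the 5 leukocyte markers summed to 3397 to 4826 RPM in sham and 2552 to 7019 RPM in irradiated lungs with 0 called. The 4 erythrocyte markers were at 181, 409 and 1134 RPM in sham and 289, 1063 and 2823 RPM in irradiated lungs, with a median difference of 0.66 and 0 called. No marker of these lists was at 0. Their part in the miR-29 differences was not tested.

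Heart also lay in the radiation field, and there none of the 5 members was called in either strain. In C3H heart 52 of 312 miRNAs were called (16.7%) and in C57 heart 11 (3.53%) with limma. No member was under 0.05 before adjustment in either, and edgeR and DESeq2 also called 0 members. In C3H heart the differences ran from -0.19 (miR-29c-5p) to 0.26 (mmu-miR-29a-3p, 95% interval -0.33 to 0.85). In C57 heart they ran from -0.42 (mmu-miR-29c-3p, 95% interval -1.08 to 0.23) to 0.18 (mmu-miR-29a-5p). Sex turned signs in C57 heart: in males alone mmu-miR-29a-5p was at -0.28, mmu-miR-29b-3p went from 0.10 to -0.26 and mmu-miR-29c-5p from 0.14 to -0.22, and with sex as a covariate they were at -0.11, -0.14 and -0.16, none of them called. In C3H heart the value of mmu-miR-29a-5p near 0 (-0.015) averaged opposite directions in the letters. In letter A it was 9.82 to 16.96 RPM in sham and 1.16 to 12.8 RPM in irradiated hearts (-0.89, adjusted p = 0.171), and in letter B 2.05 to 5.95 RPM in sham and 6.06 to 9.12 RPM in irradiated hearts (0.81, adjusted p = 0.256). mmu-miR-29b-3p (-0.24 and 0.18), mmu-miR-29c-3p (-0.30 and 0.037) and mmu-miR-29c-5p (-0.68 and 0.23) also had opposite signs in letters A and B, none of them called. mmu-miR-29b-3p was 4049, 7811 and 18709 RPM in C3H sham hearts and 5030, 5317 and 13251 RPM in irradiated hearts, and in C57 it was 6628, 7040, 7831, 8341 and 9242 RPM in irradiated hearts within the sham range of 4262 to 14474 RPM. With any 1 heart library left out, C3H irradiated replicate 3 included, 0 members were called. Within the sham groups the hearts lay at 2 levels, described further on. No strain interaction passed in heart (0 of 5 members, 0%, with 0 members also under 0.05 before adjustment, and 0 members in edgeR and DESeq2).

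Lung and heart were compared with each other in a joint limma fit, with the difference between the organs in the effect of WTLI as its question. It did not pass for any member in C3H mice (25 of 374 miRNAs called, 6.68%) or C57 mice (21 of 374, 5.61%). mmu-miR-29a-5p in C3H came nearest at -0.92 ± 0.40 (unadjusted p = 0.0242, adjusted p = 0.156), and mmu-miR-29b-3p in C3H was at -0.51 ± 0.33 (adjusted p = 0.429). The lower level of these arms in C3H lung was therefore not shown to be particular to lung. With the animal as a block, with TMM and with library size alone, 0 members passed too.

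Brain, outside the field, and the blood fractions had no miRNA called by limma in either strain: 0 of 433 in brain (0%), 0 of 291 in WBC (0%) and 0 of 229 in RBC (0%). The strain interaction likewise had 0 calls in brain (0%), WBC (0%) and RBC (0%), with 1 member, miR-29b-3p in RBC, under 0.05 before adjustment. Of the members, 1 in C57 WBC and none in the other 5 contrasts was under 0.05 before adjustment, and edgeR and DESeq2 called 0 members. In brain the members differed by -0.30 to 0.19 in C3H and 0.06 to 0.56 in C57. Of the 7 irradiated C3H brains, 3 lay above every sham brain for mmu-miR-29a-3p and 4 below every sham brain. They ran from 11111.1 to 51231.4 RPM, against 17626.5 to 37745.7 RPM in sham. mmu-miR-29c-3p was likewise above in 3 and below in 4, so both differences averaged opposite directions. In sham C57 brains the 3 females of letter B stood low, at 9937 to 11067 RPM of mmu-miR-29a-3p and 3421 to 4127 RPM of mmu-miR-29c-3p, whereas each of the other sham C57 brains had at least 15904 and 6360 RPM. This split was noticed after the data were seen, and the irradiated female, also of letter B, was at 11524 and 4652 RPM. miR-29c-5p had too few counts to be tested in WBC and RBC. mmu-miR-29a-3p in C3H WBC was 381, 463, 998, 1536 and 1976 RPM in the 5 sham mice and 243, 525 and 611 RPM in the 6 irradiated mice. All 6 irradiated values lay below the sham median, and 1 lay below every sham value, while 2 sham values lay within the irradiated range (-0.46, 95% interval -1.25 to 0.33, adjusted p = 0.801). mmu-miR-29b-3p in C57 WBC was 828, 1059, 1098, 1212 and 1835 RPM in irradiated mice and 840, 1446 and 2345 RPM in sham mice (-0.38, unadjusted p = 0.0497, adjusted p = 0.862 in limma).

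**Figure D4:**
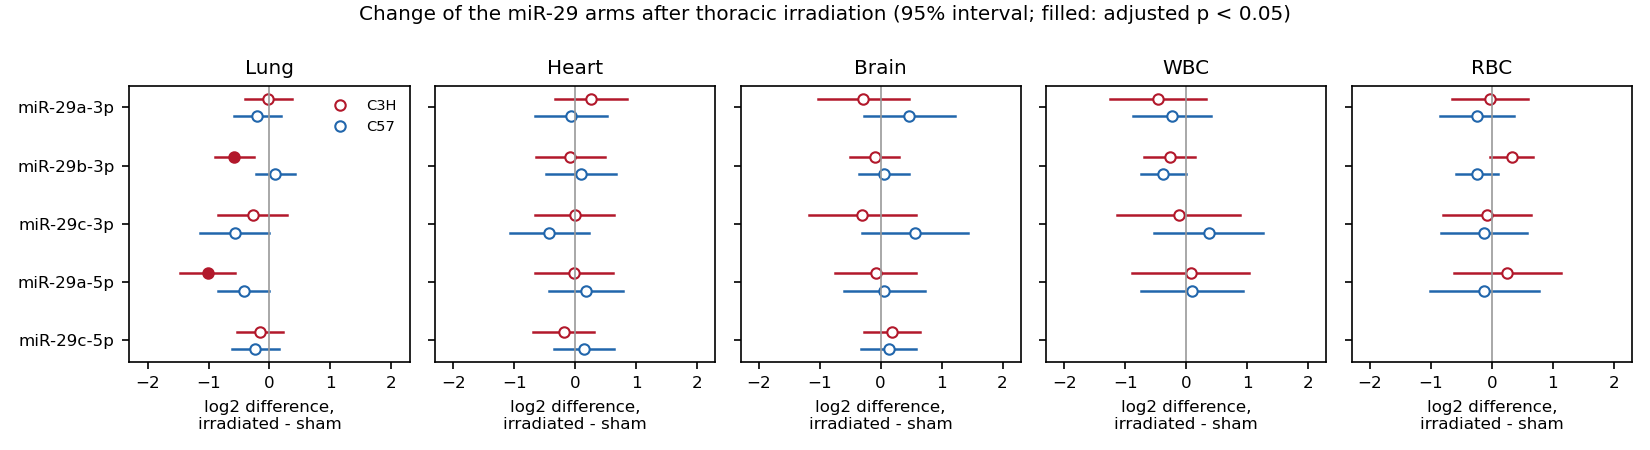
Log2 difference between irradiated and sham mice with its 95% interval for each miR-29 arm by tissue (C3H red, C57 blue; filled where the adjusted p was under 0.05; miR-29c-5p was not tested in WBC and RBC). The filled points are miR-29b-3p (-0.57) and miR-29a-5p (-1.02) in C3H lung.

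Ratios within a library do not depend on the scaling, so the balance of the family was also compared. Ratios of miR-29c-3p and miR-29b-3p to miR-29a-3p, and of each 3p arm to its own 5p arm for miR-29a and miR-29c, gave 40 exact permutation tests (two-sided) over tissues and strains, and 1 passed after adjustment. In C57 heart the log2 ratio of miR-29c-3p to miR-29a-3p was -0.92, -0.88, -0.79, -0.77 and -0.63 in the 5 irradiated mice and between -0.82 and -0.35 in the 15 sham mice. All 5 irradiated values lay below the sham median. The means were -0.80 ± 0.11 (SD) and -0.54 ± 0.13, a difference of -0.26 (exact permutation p = 0.00103, adjusted p = 0.0413). In C3H heart all 7 irradiated values also lay below the sham median, with means of -0.79 ± 0.29 and -0.45 ± 0.19 (difference -0.34, exact permutation p = 0.0208, adjusted p = 0.299).

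The C57 call was lost in 16 of the 20 cases with 1 library left out (adjusted p up to 0.186) and held in the other 4, while the difference stayed between -0.30 and -0.23. Within C57 males it was -0.27 (exact permutation p = 0.0101, adjusted p = 0.299). Within letter A it was -0.36 (exact permutation p = 0.0222, the smallest this split allows, adjusted p = 0.299) and within letter B -0.20 (exact permutation p = 0.025, adjusted p = 0.333). The smallest exact permutation p was 0.00833 for letter B and 0.00202 for males. With so few mice none of the 3 could pass the adjustment over 40 tests, so their adjusted p-values decide nothing about the call. These checks were chosen after the data were seen. As miR-29a-3p and miR-29c-3p differ by 1 base, the ratio also rests on how reads were assigned, which was not stated. In C57 lung the ratio of miR-29b-3p to miR-29a-3p was higher by 0.48 after WTLI (above the sham median in 5 of 5, exact permutation p = 0.0224, adjusted p = 0.299).

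Sham mice of the strains were compared among females, since all C3H mice were female. The most distinct values were in WBC. mmu-miR-29a-3p was 381, 463, 998, 1536 and 1976 RPM in C3H sham mice and 4081, 4292, 7790 and 9077 RPM in C57 sham females, and the groups did not overlap. The limma difference, C57 minus C3H, was 2.15 ± 0.41 (adjusted p = 0.00057). mmu-miR-29c-3p was 47.2 to 187 RPM in C3H and 237 to 837 RPM in C57 females (1.97 ± 0.51, adjusted p = 0.00664). These 2 members were among 22.3% of miRNAs called in WBC. With library size alone, where the median of all miRNAs was 0.75, all 4 tested members were called, with mmu-miR-29a-3p at 2.72, beside 32.6% of miRNAs. The leukocyte markers summed to 15266 to 22428 RPM in C3H sham and 16287 to 33448 RPM in C57 sham mice of both sexes, and the erythrocyte markers to 30121 to 44647 and 23204 to 106907 RPM. Lists of other cell types also stood higher in C57 sham WBC, with some overlap: the brain list was at 369, 456 and 1565 RPM (lowest, median and highest) in C3H and 930, 1839 and 5782 RPM in C57, and the mesenchymal list at 19.2, 56.8 and 118 RPM and 71.5, 123 and 213 RPM, with miR-199a-5p at 0 in all sham WBC and miR-214-3p at 0 in C3H. The epithelial list was at 248 to 434 and 242 to 470 RPM. The part of these lists in the strain difference was not tested.

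In sham RBC mmu-miR-29b-3p was 280 to 595 RPM in C3H and 538 to 1266 RPM in C57 females (0.82 ± 0.17, adjusted p = 0.000688), beside 18.3% of miRNAs called. In sham lung no member differed between the strains (14.4% of miRNAs called) and in sham brain none did either (15%), with 0 and 2 members under 0.05 before adjustment in limma. In sham heart 2 members passed (31.6%): mmu-miR-29b-3p was lower in C57 females (-0.66, adjusted p = 0.0308) and mmu-miR-29c-3p higher (0.69, adjusted p = 0.0479). With TMM neither passed, and mmu-miR-29a-3p was called instead (0.76, adjusted p = 0.0192). With library size alone mmu-miR-29b-3p passed (-0.81, adjusted p = 0.0239) as did mmu-miR-29c-5p (-0.77, adjusted p = 0.0348), and mmu-miR-29c-3p did not (0.35, adjusted p = 0.368). With C57 males included neither passed. The 4 C3H hearts of letter B, at 4049 to 5319 RPM of mmu-miR-29b-3p, overlapped the C57 females at 4262 to 5128 RPM, and only the 4 of letter A, at 10302 to 18709 RPM, lay apart from them.

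The heart values were divided by sex within C57 sham mice, where all 5 members passed (34.9% of miRNAs called). Per the study's methods the males entered the study at a younger age than the females, so sex and age cannot be told apart here. mmu-miR-29b-3p was 6862 to 14474 RPM in the 8 males and 4262 to 5128 RPM in the 7 females, with no overlap (males minus females 0.98 ± 0.23, adjusted p = 0.00259). Both 5p arms were also higher in males with no overlap: mmu-miR-29a-5p was 9.66 to 16.97 RPM against 3.54 to 7.62 RPM (0.93, adjusted p = 0.0116), and mmu-miR-29c-5p was 12.8 to 19.0 RPM against 4.53 to 8.18 RPM (0.96, adjusted p = 0.000656). The other 3p arms went the opposite way: mmu-miR-29a-3p differed by -0.71 (adjusted p = 0.0364) and mmu-miR-29c-3p by -0.95 (adjusted p = 0.00852). Those 2 did not pass with library size alone (-0.49 and -0.55), where the median of all miRNAs was 0.31. In the other tissues limma called no member between the sexes: lung (6.05% of miRNAs called), brain (21.3%), WBC (11.1%) and RBC (14.4%). Before adjustment 1 member was under 0.05 in brain, 1 in WBC and 0 in lung and RBC.

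A split of the same kind stood between the title letters of C3H sham hearts, all labelled female, in a comparison added after the data were seen. mmu-miR-29b-3p was 10302, 11429, 17122 and 18709 RPM in the 4 hearts of letter A and 4049, 4541, 4920 and 5319 RPM in the 4 of letter B. Letter B minus letter A was -1.19 for mmu-miR-29b-3p (adjusted p = 0.0151), -1.20 for mmu-miR-29a-5p (adjusted p = 0.0322) and 0.96 for mmu-miR-29c-3p (adjusted p = 0.0409) in limma, beside 27.9% of miRNAs called. The letter B hearts thus lay near the range of the C57 female hearts, and the letter A hearts within or above that of the C57 male hearts. In C57 sham hearts limma made no call between the letters (0 of 341 miRNAs, 0%), and 1 member, mmu-miR-29a-3p, was under 0.05 before adjustment (-0.69, adjusted p = 0.503). Of these arms only miR-29b-3p also divided the irradiated C3H hearts, at 6959, 9218 and 13251 RPM in letter A and 5030, 5057, 5218 and 5317 RPM in letter B. mmu-miR-29a-5p overlapped there, at 1.16 to 12.8 RPM in letter A and 6.06 to 9.12 RPM in letter B, as did mmu-miR-29c-3p. Of the other arms, mmu-miR-29a-3p overlapped between the letters in C3H sham hearts. It divided the irradiated ones, at 4229 to 9358 RPM in letter A and 9720 to 22680.5 RPM in letter B. mmu-miR-29c-5p divided the C3H sham hearts, at 10.4 to 24.1 RPM in letter A and 4.32 to 7.65 RPM in letter B, and overlapped in irradiated ones. The cause of these 2 levels was not tested. The labelled sex and the part of the heart taken were not checked either, so the sex and letter differences are differences between labels. Of the 5 irradiated C57 hearts, 4 were from males.

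**Figure D5:**
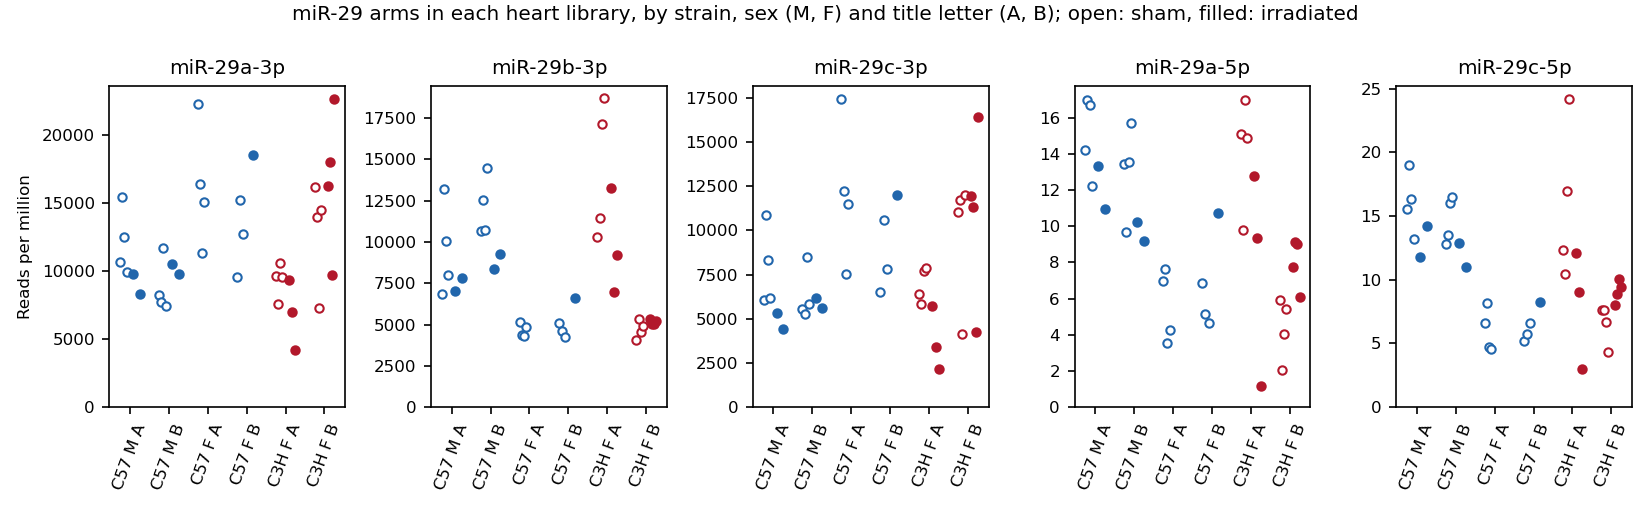
RPM of each miR-29 arm in every heart library by strain, sex and title letter (open circles sham, filled circles irradiated; C57 blue, C3H red). In sham mice miR-29b-3p and both 5p arms were higher in C57 males than females with no overlap. The same arms were higher in C3H letter A than letter B, also with no overlap.

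Across libraries within a tissue the members moved together only in part. Over 35 libraries, after removal of group means, mmu-miR-29a-3p and mmu-miR-29c-3p had a Pearson r of 0.78 in lung, 0.92 in heart and 0.94 in brain, whereas mmu-miR-29a-3p and mmu-miR-29b-3p had 0.13, -0.69 and 0.46. These are descriptions, since values of a library share its depth and scaling, and the arms with the high r come from different chromosomes but differ by 1 base. The means removed were those of strain and irradiation, so the heart values still hold the differences by sex and letter given above.

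Over the means of the 20 groups, among 400 miRNAs, the patterns most like that of mmu-miR-29b-3p were mmu-miR-29c-3p (Pearson r = 0.991), miR-125b-5p, miR-125b-2-3p and miR-26a-2-3p (0.981 each) and miR-30a-3p (0.979). mmu-miR-29c-3p had mmu-miR-29b-3p first (0.991), then miR-125b-5p (0.989), miR-30a-3p (0.982), miR-26a-2-3p (0.982) and miR-30b-3p (0.978). For mmu-miR-29a-3p they were miR-151-5p (0.972), miR-99a-5p (0.970), miR-125a-5p (0.968), miR-125b-5p (0.967) and let-7e-5p (0.967), with mmu-miR-29c-3p ranked 6. The 20 groups span solid tissues and blood cells, between which most miRNAs differed.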

How the data were processed

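Small RNA libraries were prepared with a QIAseq miRNA kit from homogenised tissues and centrifuged blood cell fractions, and the authors matched reads to mouse mature miRNAs (mm10) with a vendor's online workflow. The deposited tables give raw counts for 1915 mature miRNAs in each library, to which the authors applied no normalisation. Whether molecular identifiers were used for counting is not given in the sources used here. All 167 libraries were grouped from the labels by tissue, strain and irradiation.

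Low miRNAs were removed by filterByExpr (edgeR 4.0.16, count minimum 10, total minimum 15), and counts were transformed by voom with quantile normalisation and fitted with limma 3.58.1 in R 4.3.3, with 1 model of 4 groups per tissue. A member was called at a Benjamini-Hochberg adjusted p under 0.05 over all miRNAs tested in that fit. The unit of all fits is log2 RPM. Strain and sex were compared in a fit with 6 groups, lung and heart in a joint fit, and tissues of sham mice with scaling by library size. Ratios were tested by exact permutation (two-sided) with 0.5 added to each count. The fits were tested on simulated data, where the share of false calls was above the nominal level in each tissue. It was 10.9% in lung, and ran from 6.9% in brain to 11.1% in RBC. Alternatives were TMM factors, library size alone, edgeR's quasi-likelihood test, DESeq2 1.42.0, looser and stricter filters, a fold minimum of 2.25, the letter or sex as a covariate, single letters, strains or C57 males, the animal as a block, and 96 fits with 1 library left out (each lung and heart library, the irradiated C57 brain, WBC and RBC libraries, and the C3H WBC libraries). The letter comparison in sham mice and the checks of the heart ratio were chosen after seeing the data.

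Per the labels, each animal gave several tissues. Deviations of an animal from its group means in lung and heart correlated with a median r of 0.098 over 35 animals (from -0.53 to 0.53), and the animal block changed no call. Every pair of libraries in a group differed by more than sampling noise (smallest chi-square per degree of freedom 15.5). Named miRNAs were the members, the called miRNAs of a fibrosis context list, marker lists as counts and summed levels, and the 5 nearest patterns of each 3p arm. The members, the lists and the target genes were chosen with earlier results of these data, or textbook knowledge, at hand. Sequences came from RefSeq GRCm38.p6 and gene positions from GENCODE M21. Nothing says whether libraries of a group came from separate cages or batches, so p-values measure the spread between these animals.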

Additional observations from a re-analysis of the deposited data

Results flagged for a closer look

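Dixon's test at the 95% level was run 60 times, each time on 1 arm in 1 group of 4 to 10 libraries with enough counts. In 7 of these tests the lowest or highest library lay far from the others. Chance flags about 1 test in 20, and the arms of a group were tested in the same libraries. All 7 values are RPM.

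In lung, miR-29c-3p was highest in C3H irradiated replicate 7 (10398) and miR-29a-5p was highest in C3H sham replicate 4 (21.4). In heart, miR-29c-5p was lowest in C3H irradiated replicate 3 (3.02), the library with the low cardiac markers, and miR-29a-3p was highest in C57 irradiated replicate 5 (18509), the female of that group. The same animal had the lowest miR-29a-5p (3.97) and miR-29c-5p (11.3) of the irradiated C57 brains. It was the group's only female and of letter B, and the 3 sham C57 females of letter B were at 5.31 to 11.97 RPM of miR-29a-5p, all above it, and 10.1 to 18.0 RPM of miR-29c-5p, a range that held its value. In WBC, miR-29a-3p was lowest in C3H irradiated replicate 7 (243). Of 23 interactions of strain and irradiation tested for the members in limma, 0 passed.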

How the results depend on the processing

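All values are log2 differences, irradiated minus sham, unless they are counts of members. The count of called members in C3H lung, 2, became 0 with the study's fold minimum, 1 with library size alone and 1 in letter B alone, rose to 3 with edgeR, and was 2 with each of 15 libraries left out. In C57 lung it rose from 0 to 1 with TMM and with DESeq2. For strain in sham heart it fell from 2 to 1 with TMM and to 0 with all sham mice in 4 groups, and for sex in C57 sham heart from 5 to 3 with library size alone. In sham WBC library size alone gave 4 for strain and 1 for sex. The cause of each was not tested.

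After irradiation, reversals were all of uncalled values. In C3H lung letter B alone gave 0.40 for mmu-miR-29a-3p and 0.30 for mmu-miR-29c-3p, and mmu-miR-29c-5p was 0.28 with library size alone, 0.041 with edgeR and 0.056 with DESeq2. In C57 lung mmu-miR-29b-3p was -0.091 with TMM, -0.13 with edgeR, -0.12 with DESeq2 and -0.14 in letter A alone, and mmu-miR-29c-5p was 0.047 with library size alone. In C3H heart letter B alone gave 0.18 for mmu-miR-29b-3p, 0.037 for mmu-miR-29c-3p, 0.81 for mmu-miR-29a-5p and 0.23 for mmu-miR-29c-5p; the looser filter gave 0.0017 for mmu-miR-29c-3p, 1 strain at a time 0.042 for mmu-miR-29a-5p, and the stricter filter 0.0090 for mmu-miR-29c-5p. In C57 heart mmu-miR-29a-3p was 0.13 with sex as a covariate, 0.45 in letter B alone and 0.030 in males alone. There mmu-miR-29b-3p was -0.032 with edgeR, -0.049 with DESeq2, -0.14 with sex, -0.020 in letter B alone and -0.26 in males alone. With sex and in males alone mmu-miR-29a-5p was -0.11 and -0.28, and mmu-miR-29c-5p -0.16 and -0.22. With 1 library left out, signs turned for mmu-miR-29a-3p in C3H lung (-0.12 to 0.10), mmu-miR-29b-3p (-0.19 to 0.060), mmu-miR-29c-3p (-0.23 to 0.18) and mmu-miR-29a-5p (-0.24 to 0.20) in C3H heart, and mmu-miR-29a-3p in C57 heart (-0.23 to 0.0084).

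Between tissues of sham mice called values reversed too, 6 of 45 with TMM and 7 of 45 with quantile normalisation. With TMM heart minus brain was 0.054 for mmu-miR-29a-3p, 0.32 for mmu-miR-29b-3p, 0.49 for mmu-miR-29c-3p, 0.28 for mmu-miR-29a-5p and 0.041 for mmu-miR-29c-5p, and lung minus brain 0.21 for mmu-miR-29a-3p. With quantile normalisation heart minus brain was 0.023 for mmu-miR-29c-3p, 1.81 for mmu-miR-29a-5p and 1.44 for mmu-miR-29c-5p, lung minus brain 0.57 for mmu-miR-29c-5p, and mmu-miR-29a-5p was -0.12 for heart minus RBC, -1.07 for brain minus WBC and -1.93 for brain minus RBC. WBC minus RBC, uncalled, turned to -0.24 (TMM) and -0.86 (quantile) for mmu-miR-29a-5p and to -0.015 and -0.29 for mmu-miR-29c-5p.

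The animal as a replicate block left 45 of 50 tissue tests and 0 Lung-Heart calls as they were. In irradiated C3H lungs each 3p arm had at least 8244 counts, but over all lungs there were only 17 to 109 for miR-29a-5p in lung, which limits its precision. Single letters left 2 to 4 irradiated libraries a strain.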

Other observations

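The rarest arms of the family were miR-29b-1-5p and miR-29b-2-5p, the passenger strands of the hairpins that make miR-29b-3p. Over all 167 libraries they had 0 to 7 counts each, so miR-29b-3p reads had hardly any 5p partner from either locus. In sham C57 brain, the group named here after its values were seen, miR-29b-2-5p averaged 0.921 ± 0.546 RPM (SD, n = 15) and miR-29b-1-5p 0.147 ± 0.313 RPM, while miR-29b-3p averaged 13516 RPM. In the 5 irradiated C57 brains miR-29b-2-5p was at 0, 0, 0.305, 0.360 and 0.409 RPM, all at or under 1 count and too few to compare.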
